A study of Mus musculus with 8 samples.

Results

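The 39 genes described here encode proteins that drive a cell through its division cycle: the cyclins and kinase subunits that time it, the enzymes that copy DNA, and the motors, kinases and checkpoint proteins of mitosis. They were picked out by gene name from a list drawn up with earlier results of these data known, and all 39 had a row in the deposited table of 54532 genes. The libraries were made from retina of rd10 mice, in which a mutation of the rod gene Pde6b leads to loss of photoreceptors. The labels name a group sIVs, which the title of the series spells out as small intracellular vesicles (4 libraries numbered 2 to 5 in their titles) and a control group PBS (read here as phosphate-buffered saline, 4 libraries numbered 1 to 4), and every library carries the rd10 label. Vesicle source, dose, route, age, sex and sampling time are not given in the sources used here. Nothing states that each library came from a separate animal, so p-values measure only the spread between these libraries.

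In a dividing cell, D-type cyclins with CDK4 or CDK6 inactivate the retinoblastoma proteins, and this releases E2F factors that switch on genes for DNA replication. The MCM proteins are loaded at origins and unwind DNA in S phase, and a later wave of genes, held silent in resting cells by the DREAM complex, builds the mitotic spindle. Neurons of the mature retina do not divide, whereas microglia, Müller glia and vascular cells can return to the cycle after injury.

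Libraries 3 and 4 of the sIVs group stood apart from all others in rod markers, which are not members. The 15 rod markers summed to between 38503 and 45891 CPM (counts scaled to a common library total, with edgeR's TMM factors) in PBS and to 43658, 10293, 9767 and 35351 CPM in sIVs libraries 2, 3, 4 and 5. In bulk tissue, fewer cells of a type and less RNA per cell cannot be told apart. All 15 rod markers and all 9 cone markers had enough counts to be tested, so the defining genes of retina were present, and total counts ran from 14640235 to 16989737 per library. Values without libraries 3 and 4, a split chosen after seeing the data, are given beside the results that rest on them.

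No member passed the comparison of sIVs with PBS. Of the 39 members 34 had enough counts to be tested, and 0 of the 34 had an edgeR quasi-likelihood p-value under 0.05 after Benjamini-Hochberg adjustment over all 17725 genes tested, where 0 genes (0%) passed. limma-voom also called 0, and DESeq2 called 551 of 19181 genes (2.87%), 4 members among them: Ccnd1, Rrm2, Uhrf1 and Aurkb. At an unadjusted edgeR p under 0.05, 17 of the 34 members were higher in sIVs, against 1704 of all 17725 genes (9.61%), and 1 was lower, against 998 (5.63%). The members' median log2 fold change was 0.48, against -0.01 over all genes tested, and 30 were positive and 4 negative. Some members low in PBS, such as Kif23 and Rrm2, reached the count filter mainly through sIVs libraries, so their signs are not independent of it. A stricter filter (at least 1 CPM in 4 libraries) left 30 members, with a median of 0.41, 26 positive and 4 negative. With the first filter and without sIVs libraries 3 and 4, the median was 0.07, with 20 positive and 14 negative. In that fit 2 of the 34 members had an unadjusted edgeR p under 0.05, against 2510 of all 18261 genes tested. These members were Ccnd1, which was higher in sIVs, and Bub1b, which was lower. That fit called 3 of all genes tested (0.0164%) and 0 members. Without sIVs library 2 instead, edgeR called 1331 genes (7.39%) and 6 members, Ccnd1, Mcm5, Rrm2, Uhrf1 and Top2a higher and Ccna2 lower.

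By library, 11 of the 34 tested members (32.4%) were above every PBS library in sIVs library 2, 28 (82.4%) in library 3, 26 (76.5%) in library 4 and 10 (29.4%) in library 5. The share over all genes tested was 21.7%, 31.8%, 32.4% and 29.8% in those libraries. In both of libraries 3 and 4, 26 of the 34 members (76.5%) exceeded all PBS libraries, against 24.8% of all genes, and in both of libraries 2 and 5, 5 did (14.7%), against 11.3%. The members' share was thus far above that of all genes in libraries 3 and 4, above it by less in library 2 and close to it in library 5.

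**Figure D1:**
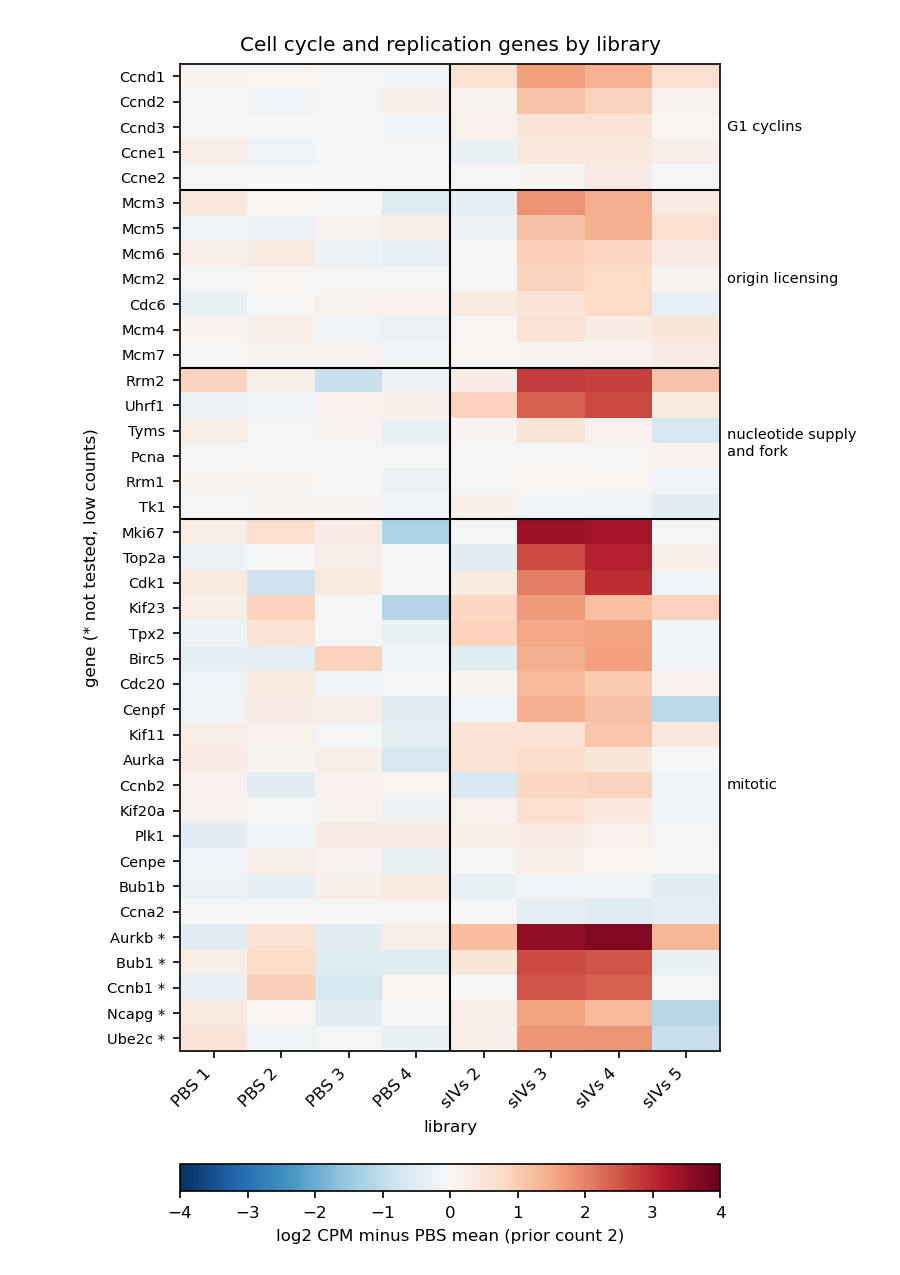
Heat map of the 39 members (rows, by role) in the 8 libraries (columns), coloured by log2 CPM minus the PBS mean; genes marked * were not tested because of low counts. The strongest red lies in sIVs libraries 3 and 4 and is deepest in mitotic genes, with Rrm2 and Uhrf1 of the replication genes, while Pcna, Rrm1 and Cenpe stay near 0 in all 8 libraries.

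Of the G1 cyclins, Ccnd1 (ENSMUSG00000070348, mm10 chromosome 7, 144929931 to 144939925), which encodes cyclin D1, the partner of CDK4 and CDK6 that couples growth signals to the cycle, had the smallest p of all members. It stood at 28.5, 28.0, 24.8 and 24.2 CPM in PBS libraries 1 to 4 and at 40.3, 83.0, 68.9 and 41.0 CPM in sIVs libraries 2 to 5. Every sIVs library exceeded every PBS library, with a log2 difference of 1.14 ± 0.22 SE (adjusted p = 0.153 by edgeR). Without libraries 3 and 4 it still had the smallest p of the members, with a log2 difference of 0.62 ± 0.10 SE (adjusted p = 0.0717 by edgeR). Ccnd1 overlaps Oraov1 on the opposite strand, a gene with a mean of 440.1 counts against 681.4 for Ccnd1, and the strand setting of the counting is not given in the sources used here.

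Ccnd3, encoding cyclin D3, stood at 63.0, 61.8, 61.9 and 56.4 CPM in PBS and 69.1, 86.7, 88.9 and 64.6 CPM in sIVs libraries 2 to 5. All 4 sIVs libraries were above PBS, library 5 by a small margin (log2 difference 0.35 ± 0.11 SE, adjusted p = 0.21 by edgeR, with a log2 difference of 0.13 without libraries 3 and 4), and the gene overlaps Bysl. Ccnd2, encoding cyclin D2, stood at 12.5, 11.8, 12.4 and 14.7 CPM in PBS and 14.1, 28.4, 23.8 and 14.1 CPM in sIVs. Only libraries 3 and 4 left the PBS range, and the log2 fold change moved from 0.65 to 0.13 without them (edgeR adjusted p = 0.249 and 0.706).

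The E-type cyclins, which activate CDK2 at the start of S phase, differed less. Ccne1 stood at 4.57, 3.40, 3.75 and 3.70 CPM in PBS and 3.15, 5.16, 5.19 and 4.41 CPM in sIVs libraries 2 to 5, so the groups overlapped (log2 fold change 0.22 ± 0.20 SE, and -0.026 without libraries 3 and 4). Ccne2 stood between 11.5 and 11.9 CPM in the PBS libraries and at 12.2, 12.7, 14.7 and 11.3 CPM in sIVs (log2 fold change 0.12 ± 0.11 SE). Ccne2 shares its locus with Ints8 on the opposite strand, which held 688.6 counts on average against 192.6 for Ccne2.

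The cell cycle kinases and inhibitors that act with the D cyclins were among 145 further genes of the pathway, grouped into 6 lists, none of which are members. Cdk4, the kinase partner of the D cyclins, stood at 37.3, 39.9, 39.6 and 36.2 CPM in PBS and 43.9, 63.3, 58.2 and 61.0 CPM in sIVs libraries 2 to 5 (log2 difference 0.57 ± 0.11 SE, adjusted p = 0.153 by edgeR). Cdk4 overlaps Tspan31 on the opposite strand, which held 758 counts on average against 754 for Cdk4, so reads may be shared. A pair of inhibitors of these kinases was also above PBS in all 4 sIVs libraries. Cdkn1a, the p53 target p21 that blocks cyclin-dependent kinases, stood at 8.11, 8.27, 9.37 and 6.05 CPM in PBS and 12.9, 24.8, 23.6 and 26.8 CPM in sIVs (log2 difference 1.47 ± 0.23 SE, adjusted p = 0.122 by edgeR). Cdkn2b, which encodes the CDK4 and CDK6 inhibitor p15, stood at 0.386, 0.449, 0.416 and 0.569 CPM in PBS and 0.737, 3.42, 2.93 and 2.09 CPM in sIVs (log2 difference 2.32 ± 0.46 SE, adjusted p = 0.153 by edgeR). Unlike Mki67 and Top2a below, the D1 cyclin, Cdk4 and both inhibitors were higher than every PBS library in sIVs library 5 as well, and without libraries 3 and 4 the log2 fold changes were 1.32 for Cdkn1a, 1.64 for Cdkn2b and 0.45 for Cdk4 (edgeR adjusted p = 0.12, 0.224 and 0.197).

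Cdk2, the kinase of the E and A cyclins, was also above PBS in all 4, at 7.50, 9.69, 8.18 and 7.46 CPM against 3.84 to 7.25 CPM. Cdk2 overlaps Pmel on the opposite strand, with 151 counts on average against 114 for Cdk2. The other inhibitors, named here after their values were seen, had other patterns. Cdkn1b, encoding p27, stood between 158.6 and 166.4 CPM in PBS and between 158.2 and 163.6 CPM in sIVs, and it was the most abundant of the 7 per length (35.8 FPKM in PBS). Cdkn1c, encoding p57, stood at 13.0, 4.91, 5.58 and 13.4 CPM in sIVs libraries 2 to 5 against 10.5 to 11.7 CPM in PBS, so libraries 3 and 4 were below and libraries 2 and 5 above the controls. Cdkn2a had 0 counts in every PBS library and 3, 1, 5 and 2 counts in the sIVs libraries, too few for a test.

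Origin licensing genes were higher in sIVs libraries 3 and 4 to unequal degrees. All 7 had a positive log2 fold change with a median of 0.52, and 0 passed. Mcm5, a subunit of the hexameric MCM helicase, stood at 4.38, 4.17, 5.28 and 5.76 CPM in PBS and 4.15, 10.997, 13.1 and 7.58 CPM in sIVs libraries 2 to 5. Library 2 lay just under the PBS range and the other 3 above it (log2 difference 0.88 ± 0.31 SE, adjusted p = 0.253 by edgeR, with a log2 difference of 0.27 without libraries 3 and 4). Mcm2 stood at 9.79, 11.03, 10.8 and 10.0 CPM in PBS and 10.8, 19.3, 18.01 and 11.3 CPM in sIVs (log2 difference 0.52 ± 0.20 SE, adjusted p = 0.273 by edgeR, with a log2 difference of 0.09 without libraries 3 and 4). Mcm4 stood at 17.3, 19.0, 14.4 and 13.4 CPM in PBS and 16.7, 23.9, 19.3 and 22.5 CPM in sIVs (log2 difference 0.36 ± 0.15 SE, adjusted p = 0.299 by edgeR, with a log2 difference of 0.29 without libraries 3 and 4). For Mcm4, library 5 was nearly as high as library 3, which was not so for Mcm2.

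The subunits of this one complex did not keep a common ratio. In sIVs library 3, Mcm3 stood at 3.49 times its PBS mean, Mcm5 at 2.25, Mcm6 at 1.90, Mcm2 at 1.86, Mcm4 at 1.49 and Mcm7 at 1.08 times. Mcm3, the lowest of them in PBS per length (0.734 FPKM, the deposited value scaled for gene length and depth), had the largest ratio. Mcm7, the highest per length (4.64 FPKM), had the smallest. In library 4 Mcm3 (2.76) and Mcm5 (2.67) were nearly equal, and Mcm7 was again the smallest at 1.12. This order did not hold in library 5, where Mcm5 was at 1.55, Mcm7 at 1.26 and Mcm3 at 1.23. In library 2 Mcm3 had the smallest ratio, 0.728. Mcm7 overlaps Cops6 on the opposite strand, which held 1314.9 counts on average against 345.8 for Mcm7. Cdc6, the loader of the MCM ring, stood between 0.837 and 1.21 CPM in the PBS libraries and at 1.41, 1.62, 1.93 and 0.835 CPM in sIVs libraries 2 to 5. Without libraries 3 and 4 the log2 fold changes of the 7 ran from -0.03 for Mcm3 to 0.29 for Mcm4.

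Genes of nucleotide supply and the replication fork split into 2 that were far higher in libraries 3 and 4 and 4 that were not. Uhrf1 (ENSMUSG00000001228, chromosome 17, 56303321 to 56323486) encodes the protein that binds hemimethylated DNA behind the fork and recruits the maintenance methyltransferase. It stood at 0.773, 0.834, 1.04 and 1.07 CPM in the PBS libraries and at 1.87, 5.22, 6.35 and 1.25 CPM in sIVs libraries 2 to 5, all above PBS (log2 difference 1.99 ± 0.51 SE, adjusted p = 0.173 by edgeR). These levels rest on 12 to 15 counts per PBS library and on 28, 84, 115 and 21 counts in sIVs. Without libraries 3 and 4 the log2 fold change was 0.74 ± 0.34 (SE, edgeR adjusted p = 0.371).

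Rrm2 (ENSMUSG00000020649, chromosome 12, 24708241 to 24714146) encodes the small, cycle-regulated subunit of ribonucleotide reductase, which makes deoxyribonucleotides. It held 12, 7, 2 and 4 counts in PBS and 7, 52, 56 and 16 counts in sIVs libraries 2 to 5, or 0.773, 0.449, 0.139 and 0.285 CPM against 0.469, 3.23, 3.09 and 0.955 CPM. Library 2 lay inside the PBS range and the other 3 above it (log2 difference 2.21 ± 0.67 SE, adjusted p = 0.203 by edgeR, with a log2 difference of 0.77 ± 0.59 without libraries 3 and 4). Rrm1, the large subunit of the same enzyme, stood between 32.7 and 41.0 CPM in the PBS libraries and at 35.8, 40.0, 40.0 and 34.9 CPM in sIVs, with no library outside the PBS range (log2 fold change -0.01 ± 0.09 SE).

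Pcna, the sliding clamp that holds polymerase on DNA and also serves repair, was the most abundant member per length at 31.5 ± 1.38 FPKM in PBS (SD, n = 4). It stood at 78.6, 74.1, 78.4 and 72.4 CPM in PBS and 78.7, 76.6, 78.0 and 83.5 CPM in sIVs libraries 2 to 5 (log2 difference 0.06 ± 0.06 SE, adjusted p = 0.661 by edgeR). Its named pseudogene copy Pcna-ps2 held 11.4 counts on average against 1217.9 for Pcna. Tyms, which makes thymidylate, and Tk1, which salvages thymidine and overlaps Afmid, also overlapped between groups, with log2 fold changes of 0.06 ± 0.24 and -0.12 ± 0.17 (SE). In sIVs library 5 both were at their lowest, 3.58 CPM for Tyms and 4.59 CPM for Tk1, below all PBS libraries.

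**Figure D2:**
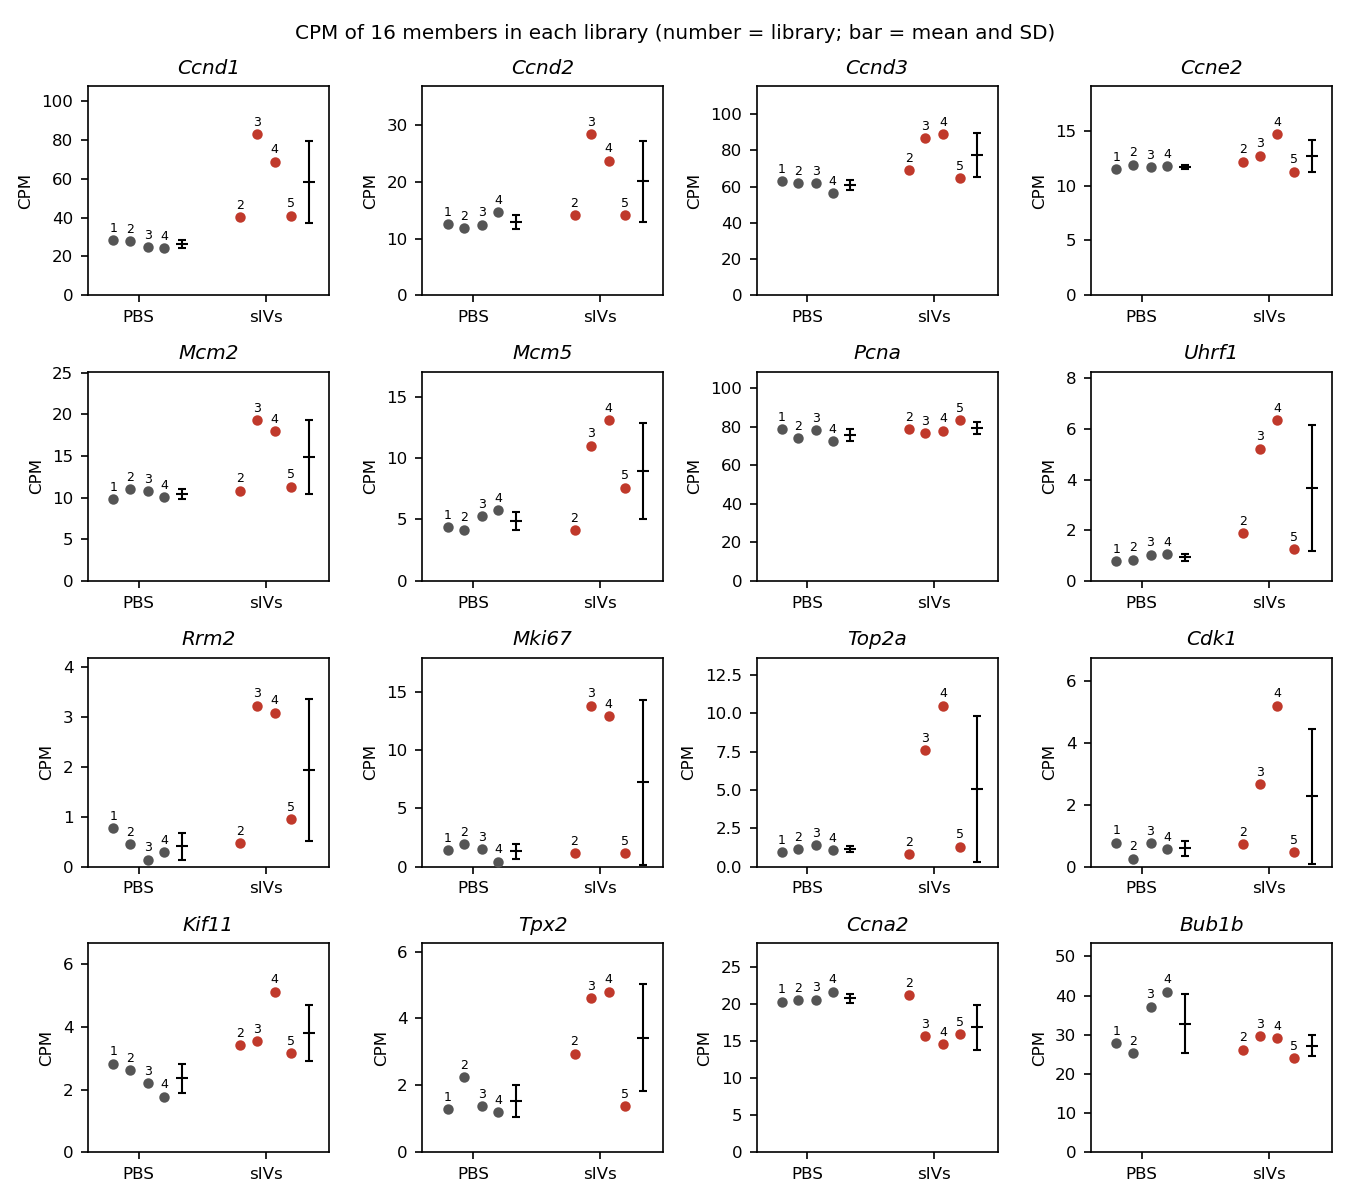
CPM (y axis, from 0) of 16 members in each library; points are single libraries with their number, and bars give the mean and SD of the 4 libraries of a group. Mki67, Top2a, Cdk1 and Rrm2 show libraries 3 and 4 far above all others, Ccnd1 shows all 4 sIVs libraries above PBS, and Pcna shows no separation.

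Mitotic genes showed the widest gap between libraries. Of the 21, 16 were tested, 14 were positive and 2 negative, and 0 passed. Mki67 (ENSMUSG00000031004, chromosome 7, 135689784 to 135716361) encodes Ki-67, a protein of mitotic chromosome surfaces used as the standard marker of cycling cells. It stood at 1.42, 1.92, 1.53 and 0.427 CPM in the PBS libraries and at 1.14, 13.8, 12.9 and 1.13 CPM in sIVs libraries 2 to 5. Libraries 3 and 4 were at 10.4 and 9.77 times the PBS mean, and libraries 2 and 5 lay inside the PBS range (log2 difference 2.44 ± 0.85 SE, adjusted p = 0.248 by edgeR). Without libraries 3 and 4 the log2 fold change was -0.23 ± 0.47 (SE).

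Top2a (chromosome 11, 98992943 to 99024189), the topoisomerase that untangles sister chromatids, stood at 0.966, 1.15, 1.39 and 1.07 CPM in PBS and 0.803, 7.58, 10.5 and 1.31 CPM in sIVs libraries 2 to 5. Library 2 was below every PBS library and library 5 inside their range, so the difference again lay in libraries 3 and 4 (log2 fold change 2.14 ± 0.73 SE, and -0.10 ± 0.36 without them). Cdk1, the kinase that triggers mitosis, stood at 0.773, 0.257, 0.764 and 0.569 CPM in PBS and 0.737, 2.67, 5.19 and 0.477 CPM in sIVs (log2 fold change 1.95 ± 0.73 SE, and 0.03 without libraries 3 and 4). Ccnb1, its cyclin partner, was not tested because of its low counts, 2, 8, 1 and 3 in PBS and 3, 28, 28 and 3 in sIVs libraries 2 to 5. Cdk1 and Ccnb1 thus had the same 2 high libraries.

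Kif11 and Tpx2 act in spindle assembly, Kif11 as the motor that pushes the poles apart and Tpx2 as the activator of Aurora A. Kif11 stood at 2.83, 2.63, 2.22 and 1.78 CPM in PBS and 3.41, 3.54, 5.14 and 3.16 CPM in sIVs libraries 2 to 5, and all 4 were above PBS (log2 difference 0.69 ± 0.23 SE, adjusted p = 0.228 by edgeR, with a log2 difference of 0.47 without libraries 3 and 4). Tpx2 stood at 1.29, 2.24, 1.39 and 1.21 CPM in PBS and 2.95, 4.60, 4.81 and 1.37 CPM in sIVs. For Tpx2, library 2 joined libraries 3 and 4 above PBS while library 5 did not (log2 difference 1.16 ± 0.39 SE, adjusted p = 0.237 by edgeR, with a log2 difference of 0.47 without libraries 3 and 4). Of the 34 tested members, the 4 with all sIVs libraries above all PBS libraries were Ccnd1, Ccnd3, Uhrf1 and Kif11, against 784 of 17725 genes (4.42%), and 0 had all below, against 596 (3.36%).

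The remaining spindle and checkpoint genes formed 3 patterns. Kif23, Cdc20, Cenpf, Birc5 and Ccnb2 were between 1.81 and 3.34 times the PBS mean in libraries 3 and 4, with log2 fold changes from 0.40 to 1.16. Without those libraries the log2 fold changes were 0.78 for Kif23, 0.14 for Cdc20, -0.63 for Cenpf, -0.45 for Birc5 and -0.38 for Ccnb2. Among these, Kif23, a motor of the midzone needed for cytokinesis, was at 1.68 and 1.82 times the PBS mean in libraries 2 and 5. Both libraries lay inside its PBS range, at 0.937 and 1.01 CPM against 0.142 to 1.03 CPM in PBS. Cenpf, a kinetochore protein, was at 0.905 and 0.403 times its PBS mean in libraries 2 and 5, with library 5 below every PBS library. Ccnb2 has a transcribed pseudogene, Ccnb2-ps, with 169 counts on average against 31.6 for the gene itself, and its reads may be shared. Cdc20, the activator of the anaphase-promoting complex, overlaps Elovl1, with 208.8 counts against 15.4.

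Aurka, Kif20a, Plk1 and Cenpe stood at most at 1.63 times the PBS mean in any sIVs library. Aurka and Plk1 are mitotic kinases, Kif20a (which overlaps Cdc23) a motor of cytokinesis and Cenpe a motor that moves chromosomes to the spindle equator. Cenpe did not leave the PBS range in any sIVs library, at 5.69, 6.59, 5.97 and 5.55 CPM against 4.70 to 6.86 CPM.

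Ccna2 and Bub1b were the mitotic members with a negative log2 fold change. Ccna2, encoding cyclin A2 of S phase and G2, stood at 20.3, 20.5, 20.6 and 21.7 CPM in PBS and 21.2, 15.7, 14.6 and 15.9 CPM in sIVs libraries 2 to 5. Libraries 3, 4 and 5 were below every PBS library (log2 difference -0.31 ± 0.12 SE, adjusted p = 0.29 by edgeR, with a log2 difference of -0.17 without libraries 3 and 4). It overlaps Exosc9 on the opposite strand, with 341.6 counts on average against 292.2 for Ccna2. Bub1b, the checkpoint protein BubR1, stood at 27.8, 25.3, 37.2 and 41.1 CPM in PBS and 26.2, 29.7, 29.1 and 24.1 CPM in sIVs (log2 difference -0.27 ± 0.15 SE, adjusted p = 0.443 by edgeR, with a log2 difference of -0.39 without libraries 3 and 4). Its partner gene Bub1, too low to test, held 5, 8, 2 and 2 counts in PBS and 6, 36, 37 and 3 counts in sIVs, far above PBS in libraries 3 and 4, where Bub1b was at 0.904 and 0.886 times its PBS mean.

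The 5 untested members all had their highest counts in sIVs libraries 3 and 4. Aurkb, the kinase of the chromosomal passenger complex, held 0, 2, 0 and 1 counts in PBS and 4, 30, 38 and 5 counts in sIVs libraries 2 to 5, so every sIVs library exceeded every PBS library. Ube2c, the ubiquitin-conjugating enzyme of the anaphase-promoting complex, held 11, 6, 6 and 5 counts in PBS and 8, 29, 33 and 3 in sIVs. Ncapg, a condensin subunit whose locus overlaps Lcorl, held 9, 7, 4 and 6 counts in PBS and 8, 25, 22 and 2 in sIVs. For Ube2c and Ncapg, library 5 was the lowest of all 8 libraries.

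Promoter sequence is shown for 4 replication and mitotic members of small p and for Pcna, whose groups did not separate, because these gene classes are known to be read through different short elements. RefSeq entries (GRCm38.p6) were matched by symbol for 31 of the 39 members, 3 of them with 2 starts. The 250 bases before the start were searched on both strands for CCAAT (the NF-Y box), for the cell cycle homology region of DREAM targets (TTTGAA or TTCGAA or TTTAAA or CTTGAA) and for the E2F letters TTTGGCGC or TTTCCCGC or TTTCGCGC or TTTGCCGC. No 2 matches overlapped in the windows printed. Capitals mark every match, and sequences run 5′ to 3′ on the gene's strand. Of the 6 members of smallest p with an entry, the 4 with a single start are printed, and Pcna was added after its values were seen.
Mki67, chr7:135716380-135716629, minus strand: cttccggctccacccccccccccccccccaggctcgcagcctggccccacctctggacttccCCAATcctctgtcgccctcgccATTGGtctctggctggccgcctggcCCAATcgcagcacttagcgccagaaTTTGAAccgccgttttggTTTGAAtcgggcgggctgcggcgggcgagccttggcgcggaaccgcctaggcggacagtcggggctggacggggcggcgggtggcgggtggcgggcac
Top2a, chr11:99024190-99024439, minus strand: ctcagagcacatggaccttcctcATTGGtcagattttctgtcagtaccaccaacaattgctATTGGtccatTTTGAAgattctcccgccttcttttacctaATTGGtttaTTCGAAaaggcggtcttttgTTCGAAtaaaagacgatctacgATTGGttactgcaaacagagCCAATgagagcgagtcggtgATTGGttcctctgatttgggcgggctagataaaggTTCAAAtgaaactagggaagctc
Kif11, chr19:37376132-37376381, plus strand: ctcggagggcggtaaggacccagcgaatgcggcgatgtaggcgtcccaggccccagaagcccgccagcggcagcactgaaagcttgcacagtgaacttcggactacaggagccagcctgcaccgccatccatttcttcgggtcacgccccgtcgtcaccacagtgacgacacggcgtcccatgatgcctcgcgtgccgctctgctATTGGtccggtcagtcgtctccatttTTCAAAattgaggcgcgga
Rrm2, chr12:24708004-24708253, plus strand: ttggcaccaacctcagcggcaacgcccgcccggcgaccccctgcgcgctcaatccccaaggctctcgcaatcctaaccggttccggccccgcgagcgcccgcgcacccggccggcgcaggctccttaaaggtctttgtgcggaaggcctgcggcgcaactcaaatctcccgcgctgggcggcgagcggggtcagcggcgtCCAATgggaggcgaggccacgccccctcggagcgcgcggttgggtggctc
Pcna, chr2:132253181-132253430, minus strand: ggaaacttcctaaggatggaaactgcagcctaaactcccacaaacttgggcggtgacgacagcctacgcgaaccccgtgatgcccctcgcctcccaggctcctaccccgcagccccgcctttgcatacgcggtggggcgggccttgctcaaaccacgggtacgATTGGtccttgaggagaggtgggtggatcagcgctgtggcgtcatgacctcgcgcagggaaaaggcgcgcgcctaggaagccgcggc

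The Top2a window held 6 CCAAT matches and 4 of the cell cycle homology letters, the nearest of which began 23 bases before the start. The Mki67 window held 3 and 2, and the Kif11 window 1 of each, 45 and 19 bases before the start. The Rrm2 and Pcna windows each held a single CCAAT match and no match to the other letters. Among the 17 mitotic members with an entry, 16 (94.1%) had CCAAT and 14 (82.4%) a cell cycle homology match, against 33.8% and 34% of all 32851 promoter windows. Of the 12 S phase members with an entry, 9 (75%) had CCAAT, 4 (33.3%) a cell cycle homology match and 5 (41.7%) an E2F match, against 1.86% of all windows for E2F. These shares are not alike in unit. Members with 2 starts, such as Uhrf1 and Mcm7, were counted when either window matched, whereas the share over all promoters counted each window. Bub1b and Cenpe had CCAAT, and Bub1b also had a cell cycle homology match. A match describes letters in this window only, and its bearing on the levels was not tested.

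S phase and mitotic members were then set side by side by library. The median log2 CPM relative to the PBS mean of the 13 S phase members was 0.07, 0.59, 0.78 and 0.33 in sIVs libraries 2 to 5, and between -0.17 and 0.09 in PBS. The median of the 16 tested mitotic members was 0.07, 1.07, 1.08 and -0.08, and between -0.17 and 0.20 in PBS. Mitotic medians exceeded S phase medians by 0.48 and 0.29 in libraries 3 and 4 and were lower by -0.41 in library 5, against differences of -0.13 to 0.15 among PBS libraries. In library 5 the S phase median was above every PBS value while the mitotic median was within the PBS range. Over the fit of all 8 libraries the median log2 fold change was 0.43 for S phase and 0.70 for mitotic members. Without libraries 3 and 4 it was 0.09 and -0.000835. The order of the lists depended on members of low counts. With the stricter count filter on all 8 libraries the medians were 0.40 for S phase and 0.43 for mitotic members. By limma on log2(FPKM + 1) they were 0.30 and 0.18, the reverse order. Members of 1 list share libraries and vary together, so no test of the 2 lists was made.

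As a summed level, which the abundant members dominate, the 21 mitotic members came to 73.8, 74.7, 86.1 and 84.2 CPM in PBS and 77.1, 115.8, 116.9 and 65.1 CPM in sIVs libraries 2 to 5. The 13 S phase members came to 199.4, 199.5, 193.5 and 174.2 CPM in PBS and 195.6, 242.9, 237.6 and 210.9 CPM in sIVs. For every 100 CPM of S phase transcripts there were 37.0 to 48.4 CPM of mitotic transcripts in PBS and 39.4, 47.7, 49.2 and 30.9 in sIVs, so on this scale libraries 3 and 4 overlapped or barely passed the PBS range and library 5 lay below it.

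**Figure D3:**
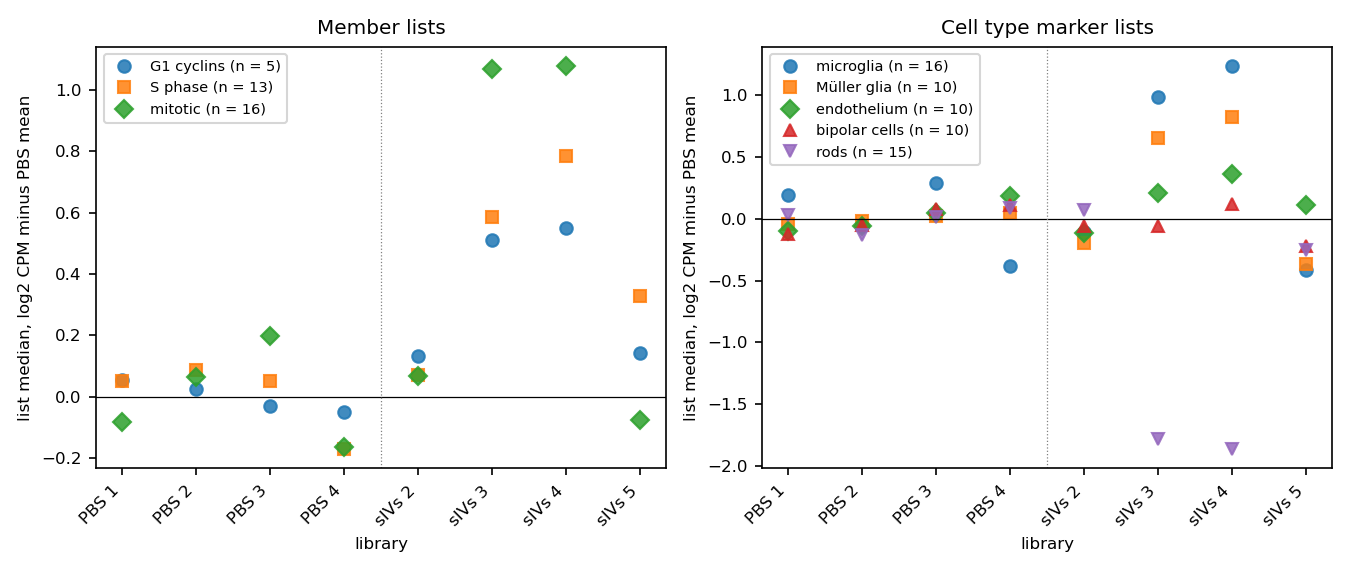
Median log2 CPM minus the PBS mean (y axis) of member lists (left) and cell type marker lists (right) in each library (x axis); each point is 1 list in 1 library. The mitotic points reach 1.07 and 1.08 in sIVs libraries 3 and 4. The medians of microglia and Müller glia markers are also high there and that of rod markers is low. Medians of bipolar cell markers stay within -0.22 to 0.12 in all libraries.

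Levels per gene length in PBS spanned a wide range across the members. Per length, Pcna (31.5 FPKM), Bub1b (7.65), Ccnd3 (6.90), Ccnd1 (5.58), Ccna2 (5.08), Mcm7 (4.64), Mcm4 (4.45), Rrm1 (3.44) and Ccne2 (3.34) were the 9 most abundant members. Of these, Ccnd1 alone had a log2 fold change above 0.40. The lowest levels were those of Aurkb (0.0168 FPKM), Ccnb1 (0.0546), Ncapg (0.0611), Bub1 (0.0639) and Cenpf (0.0669). The 5 members of largest log2 fold change, Mki67, Rrm2, Top2a, Uhrf1 and Cdk1 (1.95 to 2.44), all stood between 0.119 and 0.217 FPKM in PBS. In sIVs the mean level per length was 12.3 FPKM for Ccnd1 and 0.718 FPKM for Mki67.

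**Figure D4:**
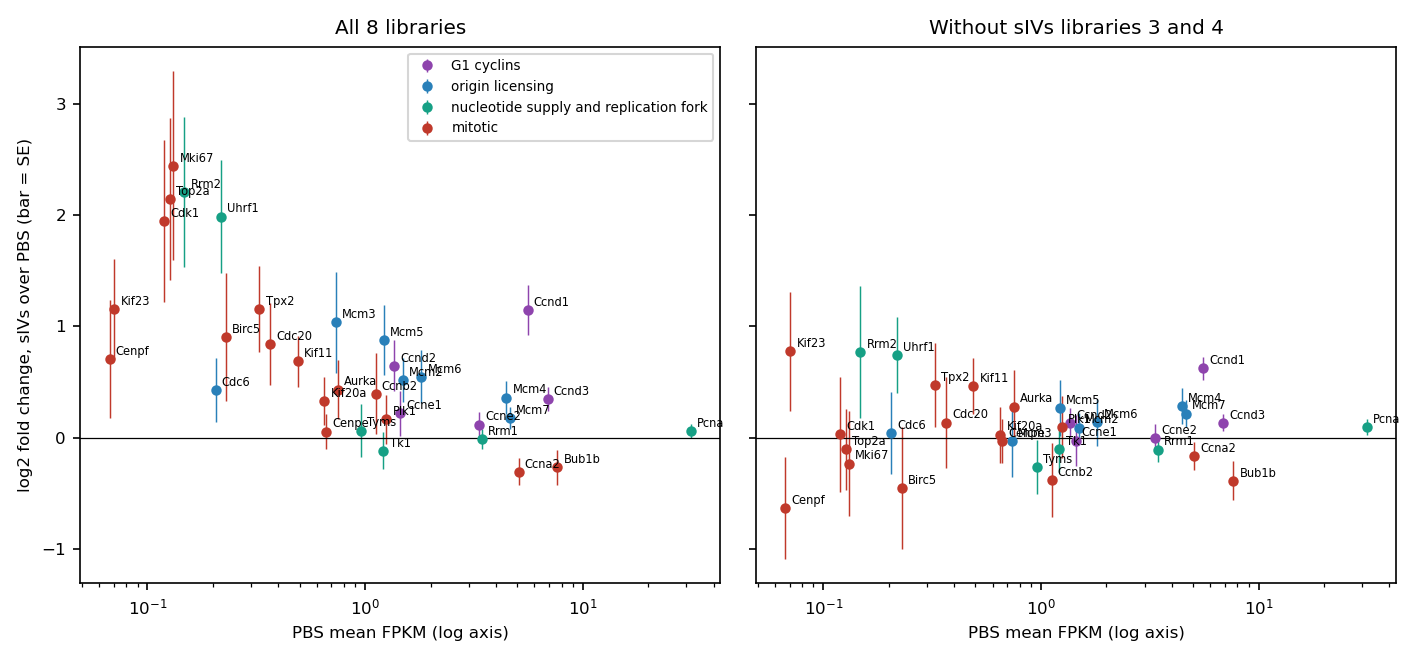
Log2 fold change of sIVs over PBS (y axis, bars are SE) against mean PBS level in FPKM (x axis, log scale) for the 34 tested members, with all 8 libraries (left) and without sIVs libraries 3 and 4 (right). On the left the low members Mki67, Rrm2, Top2a, Uhrf1 and Cdk1 lie near 2 and Pcna at 0.06, and on the right Ccnd1 keeps 0.62 with a short bar while Mki67 and Top2a lie below 0.

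Of the 145 further pathway genes 132 were tested, and 0 passed. Of 41 tested further mitotic genes, 2 were higher (4.88%, against 9.61% of all genes) and 3 lower (7.32%, against 5.63%) at an unadjusted p under 0.05, with a median log2 fold change of 0.19 and library medians of 0.08, 0.31, 0.38 and -0.13 in sIVs libraries 2 to 5. Cdca8, encoding the passenger protein borealin, stood at 0.644, 0.706, 0.902 and 0.640 CPM in PBS and 1.07, 2.86, 2.54 and 1.07 CPM in sIVs (log2 difference 1.38 ± 0.39 SE, adjusted p = 0.185 by edgeR, with a log2 difference of 0.56 without libraries 3 and 4). Cdca8 overlaps 9930104L06Rik on the opposite strand, with 478 counts on average against 21.1 for Cdca8. Spc25, a subunit of the NDC80 kinetochore complex, was lower in 3 sIVs libraries, at 61.3, 67.4, 88.9 and 92.1 CPM in PBS and 67.0, 35.4, 48.1 and 26.4 CPM in sIVs (log2 difference -0.81 ± 0.26 SE, adjusted p = 0.215 by edgeR, with a log2 difference of -0.73 without libraries 3 and 4). For Spc25 library 5 was the lowest, and library 2 lay inside the PBS range.

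Of 40 tested further replication genes, 5 were higher (12.5%, against 9.61% of all genes) and 0 lower at an unadjusted p under 0.05, with a median of 0.10. Relative to the PBS mean, the median log2 CPM of this list was 0.04 in both sIVs 3 and sIVs 4, inside the PBS span of -0.13 to 0.04. It was 0.10 in sIVs 2 and 0.14 in sIVs 5. The list therefore did not share the higher medians of the 13 S phase members in sIVs 3 (0.59) and sIVs 4 (0.78). Dbf4, the activator of the origin-firing kinase CDC7, stood at 3.35, 2.69, 2.85 and 1.92 CPM in PBS and 3.68, 4.41, 4.47 and 4.24 CPM in sIVs libraries 2 to 5, above PBS in all 4 (log2 difference 0.63 ± 0.20 SE, adjusted p = 0.208 by edgeR, with a log2 difference of 0.55 without libraries 3 and 4). Pole, the leading-strand polymerase, had a log2 difference of 0.82 ± 0.30 SE (adjusted p = 0.259 by edgeR, with a log2 difference of 0.34 without libraries 3 and 4). Among 19 tested E2F, RB family and DREAM genes, 1 was higher (5.26%) at an unadjusted p under 0.05 and the median was -0.01. That gene was E2f1, the activator of S phase genes, at 2.70, 4.81, 2.78 and 1.92 CPM in PBS and 4.55, 6.28, 6.02 and 4.47 CPM in sIVs (log2 difference 0.80 ± 0.27 SE, adjusted p = 0.241 by edgeR, with a log2 difference of 0.55 without libraries 3 and 4). E2f7, an E2F repressor, had a log2 difference of 0.89 ± 0.43 SE (adjusted p = 0.361 by edgeR, with a log2 difference of 0.56 without libraries 3 and 4). The 15 subunits and activators of the anaphase-promoting complex, which also works in neurons, had a median of 0.02, with Anapc2 at 0.23 ± 0.08 and Anapc16 at -0.19 ± 0.09 (SE, edgeR adjusted p = 0.239 and 0.357).

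Summed marker lists of immune cells were high in the same libraries. The 16 microglia markers, 14 with a positive and 2 with a negative log2 fold change, summed to between 191.5 and 316.2 CPM in PBS and to 244.5, 514.9, 628.4 and 193.5 CPM in sIVs libraries 2 to 5. Among them Aif1 stood at 2.68, 7.77, 9.17 and 1.85 CPM in sIVs against 2.56 to 3.41 CPM in PBS, while P2ry12, a marker of resting microglia, stood at 4.08, 5.03, 5.74 and 3.04 CPM against 6.05 to 7.73 CPM. The 11 monocyte and neutrophil markers summed to 3.49 to 4.72 CPM in PBS and to 3.08, 30.9, 29.4 and 9.19 CPM in sIVs, with Elane at 0 in all libraries and 1 of the 11 high enough to test. In libraries 3 and 4 the sum was mostly Chil3 (11.1 and 12.4 CPM), Ccr2 (7.46 and 5.86 CPM) and Csf3r (7.83 and 4.97 CPM). Other markers of neutrophils differed. Ly6g held 0 counts in both of these libraries, and Mpo held 1 and 0. S100a8 held 0, 0, 2 and 0 counts in PBS and 0, 10, 9 and 22 in sIVs libraries 2 to 5. S100a9 held 1, 0, 0 and 2 counts in PBS and 0, 9, 6 and 28 in sIVs. S100a8 and S100a9 were thus above PBS in libraries 3 and 4 and highest in library 5, all at low counts. The 16 lymphocyte markers summed to 2.64 to 3.91 CPM in PBS and 2.68, 6.96, 6.85 and 2.86 CPM in sIVs, with Ms4a1 at 0 in all.

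Glial and vascular lists were uneven. The 10 Müller glia markers, 8 with a positive and 2 with a negative log2 fold change, had medians of -0.20, 0.66, 0.82 and -0.37 relative to PBS in sIVs libraries 2 to 5. Their sum, 3756, 4697, 4950 and 2913 CPM, overlapped the 4161 to 5244 CPM of PBS. Glul, the most abundant of them in CPM, went the other way. It stood at 1640, 986, 1093 and 1003 CPM in sIVs against 1923 to 2719 CPM in PBS. The 5 astrocyte markers summed to 166.3 to 283.5 CPM in PBS and 275.7, 737.5, 797.6 and 316.2 CPM in sIVs, mostly through Gfap (538.6 and 594.1 CPM in libraries 3 and 4) and Aldh1l1 (151.4 and 159.7 CPM). S100b was lower there (-0.11 and -0.30 on the log2 scale relative to PBS), and the list medians were 0.34, 0.99, 0.29 and 0.11 in sIVs libraries 2 to 5. The 10 endothelial markers summed to 434.9 to 488.2 CPM in PBS and 419.3, 739.2, 748.9 and 395.8 CPM in sIVs, mostly through Kdr, at 513.6 and 505.6 CPM in libraries 3 and 4 against 239.6 to 278.4 CPM in PBS. By median, sIVs libraries 2 to 5 stood at -0.12, 0.21, 0.36 and 0.11 against at most 0.18 in a PBS library. The 6 markers of retinal progenitors, 3 of them tested, summed to 5.90 to 9.11 CPM in PBS and 6.29, 20.7, 18.01 and 11.9 CPM in sIVs, mostly through Neurog2, at 17.2 and 14.5 CPM in libraries 3 and 4. None of these lists separates which cells held the member transcripts, and their part in the members' levels was not tested.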

How the data were processed

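Gene counts and FPKM of 8 rd10 retina libraries were used as the authors deposited them. The counts are whole numbers of reads per gene with no normalization, and mm10 is the build per the submitters' processing notes. The FPKM values were scaled by the authors for gene length and depth. The aligner, counter and strand setting are not given in the sources used here.

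Groups and library numbers came from the labels. Libraries totalled 14640235 to 16989737 counts. Genes passing edgeR's filterByExpr (17725) were compared by edgeR 4.0.16 quasi-likelihood tests in R 4.3.3, with TMM scaling, a prior count of 2 for log values and Benjamini-Hochberg adjustment at 0.05. DESeq2 1.42.0, limma 3.58.1 (voom, and log2 FPKM with a pseudocount), other scalings and filters, replicate blocks and libraries left out were alternatives. The edgeR step was tested on simulated data. All 39 members were accounted for, with each library shown for those of smallest p in each role (up to 5 mitotic, up to 3 elsewhere) and for a set of named markers of the cycle. From each pathway list the 2 genes of smallest p were named, with Cdkn1a and E2f1 always. Members, pathway lists and marker lists were chosen with earlier results of these data known. RefSeq promoters were matched by symbol.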

Additional observations from a re-analysis of the deposited data

Results flagged for a closer look

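Birc5, which encodes survivin of the chromosomal passenger complex, stood at 1.46 CPM in PBS library 3, far from the other 3 PBS libraries at 0.513 to 0.640 CPM. It was the only one of 78 groups of 4 libraries checked in which a single library stood this far out. For independent, normally distributed values chance gives about 1 such group in 20. That rate does not carry over here, because the groups share the same libraries and many counts are low. Where sIVs libraries 3 and 4 were both high, neither could stand out alone. No conclusion was drawn from the number of such groups.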

How the results depend on the processing

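DESeq2 called 467 genes higher, 84 lower and 4 members. Without a filter on low counts edgeR called 145 higher, 7 lower and 1 member, Ccnd1. Leaving out each library in turn gave 0 to 870 genes higher, 0 to 461 lower and 0 to 6 members, and the upper values came without sIVs library 2. The median log2 fold change then ran from 0.35 to 0.63 for members, 0.37 to 0.62 for S phase and 0.46 to 0.89 for mitotic members. On log2(FPKM + 1) the mitotic median was 0.18 and the S phase median 0.30. With a stricter filter on low counts they were 0.43 and 0.40. Leaving out sIVs libraries 3 and 4 together, chosen after seeing the data, gave 2 genes higher and 1 lower, medians of 0.068 for members, 0.094 for S phase and -0.000835 for mitotic members, and opposite signs for Ccne1 (-0.026), Ccne2 (-0.0026), Mcm3 (-0.029), Tyms (-0.27), Ccnb2 (-0.38), Mki67 (-0.23), Top2a (-0.10), Cenpe (-0.029), Cenpf (-0.63) and Birc5 (-0.45). Rrm1 turned to 0.067 with library totals alone, which moved the median of all genes to 0.07, and with single libraries left out it ran from -0.079 to 0.027, Tyms from -0.10 to 0.25 and Cenpe from -0.029 to 0.15. The cause of these shifts was not tested. Libraries of the same number did not deviate together (correlations -0.0605 to 0.0545 by titles, -0.0749 to 0.0977 by descriptions). With a replicate block, 0 genes were called by either numbering, the members' median was 0.61 by titles and 0.46 by descriptions, and Rrm1 was at 0.062 by titles. Low counts kept 5 members from being tested.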
